A study of Mus musculus with 4 samples.

Results

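The Myc network is a set of transcription factors that share 1 partner. Here it comprised the 7 genes Myc, Mycl, Max, Mxi1, Mnt, Mga and Mxd4, chosen by symbol from 32272 gene rows, together with 257 of 174339 ATAC peaks. A peak was included when it lay within 50 kb of the start interval of a member, and for Myc also when it lay within 2 Mb on the downstream side, towards higher coordinates. The 50 kb windows held 12 peaks for Myc, 20 for Mycl, 13 for Max, 21 for Mxi1, 16 for Mnt, 8 for Mga and 24 for Mxd4, and the 2 Mb region downstream of Myc held 151.

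The nuclei came from lineage-negative, cKit-positive bone marrow cells (HSPCs) of male C57BL/6 mice, 8 weeks old. The sample Lig was from mice with silk ligatures kept around their teeth for 14 days, a model of periodontitis, and the other, Ctrl, was from mice without ligatures. Each was a pool of 5 mice, and both RNA and ATAC were read from the same nuclei with the 10x multiome assay. No transgene or deletion was named, and the pools had no replicate. The single deposited matrix marked the 2 libraries only by a barcode suffix that no label tied to Ctrl or Lig, so they are called library 1 and library 2, belong to no group here, and say nothing about the effect of the ligature.

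MYC binds DNA as a dimer with MAX at E-boxes, and such dimers activate genes for ribosome production, metabolism and division. MXD proteins (MXI1 and MXD4 among them), MNT and MGA also dimerise with MAX, occupy the same kind of site and repress, the MXD and MNT proteins through SIN3 corepressors and MGA through a Polycomb complex, PRC1.6. In blood progenitors, Myc is known to be controlled from clusters of enhancers that lie very far downstream of the gene, beyond the noncoding gene Pvt1.

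Of 18961 barcodes, 13619 were kept (5905 in library 1 and 7714 in library 2), with a median of 1641 and 1516.5 UMIs and of 19471 and 16284 ATAC counts in peaks. These UMIs include those of the ribosomal RNA locus, which the RNA levels below leave out. Of 10294527 UMIs in library 1 and 12537328 in library 2, 5864583 and 5872916 lay outside that locus, so the depth used was smaller. Among kept nuclei, 72 barcode sequences occurred in both libraries. Clustering without the members, their peaks and the pathway genes below gave 21 clusters, of which 14 took a name from markers: HSC-like (haematopoietic stem cell, led by Mecom), LMPP-like (lymphoid-primed progenitor), GMP-like (granulocyte-monocyte progenitor), EryP-like (erythroid), MkP-like (megakaryocyte), BaP-like (basophil), NeuP-like (neutrophil), cMoP-like (monocyte), cDCP-like and pDCP-like (dendritic), pro-NK/T-like, mature B-like (led by Iglc1, Jchain and Igha among its named genes, the last 2 known from plasma cells) and 2 pro-B-like clusters, 2 and 11. The other 7 kept a number, and cluster 0 (Tnf, Nrg1), cluster 1 (Nrg1, Sowahc), cluster 5 (Ephb2, Ccnd1), cluster 6 (Mdga1, Slc24a3) and cluster 9 (Ccnb1ip1, Zc3h7a) are given with leading genes. Calls were made over the 14 clusters with at least 100 nuclei in each library. Levels are UMIs or ATAC counts scaled to a total of 1000000 (CPM), and intervals are 95% Poisson intervals, for ATAC on pairs of counts. They cover counting error only, since there is 1 library of each kind, and ratios of 1 cluster to all other nuclei are descriptions with no test. Over all nuclei, macrophage markers were at or below 6.64 CPM, and stromal and endothelial ones at or below 3.41 CPM apart from Pecam1, which blood progenitors also express. Of 5 plasma cell markers, Jchain (19.95 CPM in library 1 and 3.58 CPM in library 2), Mzb1 (39.2 and 14.3 CPM), Sdc1 (5.97 and 4.60 CPM) and Derl3 (1.19 and 0.170 CPM) were higher in library 1 and Xbp1 (59.3 and 66.4 CPM) in library 2, and the part of such cells in the mature B-like values was not tested.

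The 6 downstream peaks whose class pattern is described most fully are shown first, as the 300 bases around the middle of each peak (GRCm38, plus strand). Capitals mark matches on either strand to 4 motifs of factors known in blood cells. The letters searched for ETS factors were CAGGAAG. Those for RUNX factors, which pair with CBFB, were TGTGGTT. For GATA factors, known from erythroid cells and basophils, they were AGATAA. For CEBP factors, known from myeloid cells, they were TTGCNNAA. The E-box of MYC and MAX, with the letters CACGTG, was searched as well and is in none of the 6 windows.
+1660.4 kb, chr15:63648162-63648461, highest in HSC-like and MkP-like nuclei: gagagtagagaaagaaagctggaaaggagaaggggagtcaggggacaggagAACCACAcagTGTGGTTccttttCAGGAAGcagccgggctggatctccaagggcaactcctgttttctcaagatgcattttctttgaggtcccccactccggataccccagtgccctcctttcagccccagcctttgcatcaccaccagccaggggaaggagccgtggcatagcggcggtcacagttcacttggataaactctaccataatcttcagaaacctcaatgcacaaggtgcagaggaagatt
+1717.0 kb, chr15:63704692-63704991, high in BaP-like and GMP-like nuclei and cluster 6: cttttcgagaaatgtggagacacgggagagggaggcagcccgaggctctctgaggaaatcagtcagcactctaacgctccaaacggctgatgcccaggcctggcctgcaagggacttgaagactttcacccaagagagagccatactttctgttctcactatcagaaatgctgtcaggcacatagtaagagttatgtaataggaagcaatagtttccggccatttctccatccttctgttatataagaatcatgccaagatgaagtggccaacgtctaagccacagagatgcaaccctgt
+193.8 kb, chr15:62181513-62181812, high in mature B-like and LMPP-like nuclei, pro-B-like cluster 11 and cluster 5: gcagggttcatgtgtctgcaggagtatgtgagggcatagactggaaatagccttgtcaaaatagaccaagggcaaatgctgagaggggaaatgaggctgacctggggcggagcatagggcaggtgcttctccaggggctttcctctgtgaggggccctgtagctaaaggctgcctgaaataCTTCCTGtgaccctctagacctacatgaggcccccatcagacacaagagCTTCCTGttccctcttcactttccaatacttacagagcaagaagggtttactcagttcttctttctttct
+181.9 kb, chr15:62169593-62169892, high in pro-NK/T-like, mature B-like and both pro-B-like clusters: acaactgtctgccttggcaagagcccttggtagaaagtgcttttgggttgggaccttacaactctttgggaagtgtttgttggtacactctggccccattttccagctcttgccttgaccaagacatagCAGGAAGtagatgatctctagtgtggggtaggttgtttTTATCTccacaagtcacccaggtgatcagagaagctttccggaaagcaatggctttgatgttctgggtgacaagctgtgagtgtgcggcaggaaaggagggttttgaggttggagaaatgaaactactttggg
+11.9 kb, chr15:61999649-61999948, high in clusters 0, 1 and 5 and in cDCP-like and cMoP-like nuclei: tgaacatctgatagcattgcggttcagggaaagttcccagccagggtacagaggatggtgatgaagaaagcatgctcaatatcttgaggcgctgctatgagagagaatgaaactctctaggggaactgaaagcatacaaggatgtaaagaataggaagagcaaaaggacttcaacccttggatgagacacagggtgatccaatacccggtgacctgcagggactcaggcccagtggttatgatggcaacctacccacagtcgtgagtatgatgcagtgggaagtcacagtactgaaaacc
+404.7 kb, chr15:62392407-62392706, high in clusters 0 and 1 and in cMoP-like nuclei: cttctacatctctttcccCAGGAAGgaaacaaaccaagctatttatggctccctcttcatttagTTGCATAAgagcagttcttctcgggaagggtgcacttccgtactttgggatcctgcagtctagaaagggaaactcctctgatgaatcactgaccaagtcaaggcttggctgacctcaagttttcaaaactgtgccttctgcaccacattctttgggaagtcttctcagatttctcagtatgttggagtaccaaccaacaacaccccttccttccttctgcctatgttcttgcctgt

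The window at +1660.4 kb held 2 RUNX matches and 1 ETS match, and that at +193.8 kb held 2 ETS matches. The window at +181.9 kb held 1 ETS and 1 GATA match, and that at +404.7 kb 1 ETS and 1 CEBP match, whereas those at +1717.0 kb and +11.9 kb held none of these letters. Among 174282 peak windows of the same length on the assembled chromosomes, 20.7% held the ETS letters, 12.03% the RUNX letters, 13.3% the GATA letters, 14.2% the CEBP letters and 5.52% the E-box. Of the 151 downstream windows, 17.9% held ETS, 6.62% RUNX, 23.8% GATA, 21.9% CEBP and 4.64% the E-box. A match is a description of letters and not a bound site.

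The accessible chromatin downstream of Myc was concentrated far from the gene. The 100 kb between 1600 and 1700 kb held 25.6% of all downstream counts in library 1 and 24.2% in library 2, in 19 of the 151 peaks. The first 100 kb held 14.7% and 15.7%, the next 100 kb 13.2% and 11.6%, and no downstream peak lay between 600 and 700 kb, 1000 and 1100 kb or 1300 and 1500 kb. Within the distal cluster the peak at +1660.4 kb had 3929 and 4363 counts, the most of any downstream peak, and lay in an intron of the noncoding gene Gm41335 (chromosome 15, 63647854 to 63648769). Its nearest start of a protein-coding gene was that of Gsdmc, 159.99 kb away. The next largest were the peaks at +1717.0 kb, also in Gm41335, with 1934 and 2273 counts, and at +193.8 kb, in an intron of Pvt1, with 1906 and 1922 counts.

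**Figure D1:**
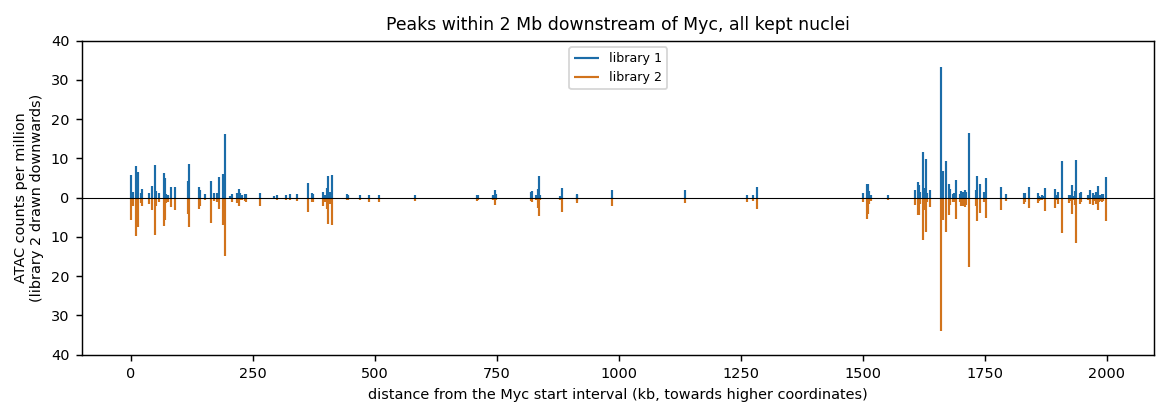
Each vertical line is 1 of the 151 peaks, placed by its distance from the Myc start interval (kb), and its height is the ATAC level (CPM) over all kept nuclei, library 1 upwards and library 2 downwards. The tallest lines stand at +1660.4, +1717.0 and +193.8 kb, and the profile of library 2 mirrors that of library 1.

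The largest downstream peak, at +1660.4 kb, was most open in stem cell-like and megakaryocyte-like nuclei. Its level was 68.3 CPM in library 1 and 60.3 CPM in library 2 in HSC-like nuclei, and 68.6 and 66.0 CPM in MkP-like nuclei. GMP-like nuclei (49.5 and 40.6 CPM), LMPP-like nuclei (44.3 and 47.4 CPM) and cluster 6 (49.4 and 49.0 CPM) came next. EryP-like nuclei had 36.2 and 39.3 CPM, and pro-B-like cluster 2 had 25.2 and 30.1 CPM. The lowest of the 14 large clusters was NeuP-like, with 12.8 and 12.1 CPM. HSC-like nuclei were thus 2.15-fold (interval 1.84 to 2.52) and 1.83-fold (1.55 to 2.17) above all other nuclei, and MkP-like nuclei 2.11-fold (1.68 to 2.65) and 1.99-fold (1.62 to 2.44). NeuP-like nuclei were at 0.381 (0.227 to 0.639) and 0.351 (0.231 to 0.534) of the others, a log2 ratio of -1.39 and -1.51 that was -0.22 and -0.56 among nuclei with at least 500 genes. Of the smaller clusters, cDCP-like nuclei had 10.1 and 7.62 CPM, cMoP-like 7.78 and 12.8 CPM and pro-NK/T-like 10.6 and 12.5 CPM, all below the 14-cluster median of 35.2 and 37.7 CPM. A neighbouring peak at +1677.8 kb, which carried fewer counts, was highest in HSC-like nuclei in both libraries (9.21 and 11.2 CPM, against medians of 3.39 and 4.54 CPM), 2.91-fold (1.89 to 4.50) and 2.76-fold (1.86 to 4.08) above other nuclei.

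A second distal peak had another order. At +1717.0 kb, BaP-like nuclei had 33.4 and 30.2 CPM and GMP-like nuclei 30.2 and 28.2 CPM, with cluster 6 at 32.0 and 23.9 CPM. HSC-like nuclei had 7.41 and 13.7 CPM, and the lowest levels were in pro-B-like cluster 2, with 3.66 and 2.25 CPM, and pro-B-like cluster 11, with 2.06 and 7.77 CPM. GMP-like nuclei were 1.965-fold (1.62 to 2.38) and 1.73-fold (1.48 to 2.01) above the other nuclei, while pro-B-like cluster 2 was at 0.198 (0.138 to 0.283) and 0.122 (0.0581 to 0.257) of them. Of the 14 large clusters, the peak at +1741.2 kb was highest in GMP-like nuclei (9.47 and 9.01 CPM, 3.13-fold, 2.19 to 4.47, and 2.72-fold, 2.05 to 3.61) and that at +883.5 kb in BaP-like nuclei (10.3 and 9.65 CPM, 4.39-fold, 2.46 to 7.84, and 2.82-fold, 1.56 to 5.10). At +883.5 kb pro-NK/T-like nuclei, a smaller cluster, had 1.18 and 8.93 CPM. Both peaks were at or under 0.965 CPM in pro-B-like cluster 2 in both libraries.

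Within Pvt1, closer to Myc, lay peaks that were highest in lymphoid-like clusters, although the distal cluster was open in some of these as well. At +193.8 kb, mature B-like nuclei had 48.8 and 63.0 CPM, pro-B-like cluster 11 had 31.8 and 31.1 CPM and LMPP-like nuclei 30.6 and 30.7 CPM, whereas EryP-like, HSC-like, NeuP-like, MkP-like and BaP-like nuclei lay between 0.449 and 4.96 CPM. In the 6 nuclei of pro-B-like cluster 11 in library 2 with at least 500 genes its log2 ratio turned to -0.68, against 1.07 in all 128. Pro-B-like cluster 2 was not among the high ones, with 12.2 and 7.88 CPM, and cluster 5 reached 27.2 and 24.9 CPM. In library 2, cluster 9 (20.3 CPM), cDCP-like nuclei (19.8 CPM), cluster 0 (18.2 CPM) and cluster 1 (15.8 CPM) were above pro-B-like cluster 2 as well. Pro-NK/T-like nuclei had 5.36 CPM in that library, so this peak was not high in all lymphoid-like clusters nor only in them. At +181.9 kb, pro-NK/T-like nuclei had 43.8 and 25.9 CPM, mature B-like nuclei 32.7 and 33.1 CPM, pro-B-like cluster 11 had 25.9 and 24.1 CPM and pro-B-like cluster 2 had 12.7 and 11.9 CPM. LMPP-like nuclei had 7.44 and 7.12 CPM, and the other 11 large clusters stayed at or below 3.01 CPM. The contrast with other nuclei was 9.21-fold (6.54 to 12.98) and 9.49-fold (5.56 to 16.2) for pro-NK/T-like nuclei and 5.51-fold (4.01 to 7.58) and 8.87-fold (5.28 to 14.9) for pro-B-like cluster 11. Another Pvt1 peak, at +190.1 kb and overlapping an annotated Pvt1 exon, differed among the lymphoid clusters. Pro-NK/T-like nuclei had 42.0 and 38.4 CPM there and LMPP-like nuclei 16.2 and 13.4 CPM, but pro-B-like cluster 11 had 0 and 1.55 CPM and pro-B-like cluster 2 had 1.65 and 2.09 CPM. Mature B-like nuclei had 6.23 and 15.8 CPM, and outside the lymphoid clusters NeuP-like (10.6 and 12.1 CPM), GMP-like (10.6 and 10.6 CPM) and BaP-like nuclei (11.1 and 7.55 CPM) were open there as well. The peak at +222.3 kb was shared by LMPP-like (7.21 and 7.12 CPM), EryP-like (7.72 and 6.47 CPM), MkP-like (4.93 and 6.80 CPM) and HSC-like nuclei (3.40 and 5.72 CPM) and was highest in pro-NK/T-like nuclei (11.2 and 15.2 CPM). GMP-like nuclei had 0.256 and 0.774 CPM.

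Other peaks were most open in clusters 0, 1 and 5 and in cMoP-like or cDCP-like nuclei. At +11.9 kb, cluster 0 had 16.3 and 15.6 CPM, cluster 1 had 16.7 and 16.2 CPM and cluster 5 had 14.7 and 16.8 CPM, with cDCP-like nuclei at 28.98 and 19.1 CPM and cMoP-like nuclei at 20.2 and 29.5 CPM. HSC-like, EryP-like, MkP-like and both pro-B-like clusters lay between 0.589 and 1.79 CPM. At +404.7 kb, cluster 0 (13.4 and 11.8 CPM), cluster 1 (14.8 and 12.5 CPM) and cMoP-like nuclei (16.3 and 23.1 CPM) were high, and cluster 1 was 3.27-fold (2.57 to 4.16) and 2.34-fold (1.92 to 2.86) above other nuclei. Cluster 5, which was high at +11.9 kb, had only 5.20 and 3.74 CPM at +404.7 kb, and was instead the highest of the 14 at +836.4 kb, with 10.8 and 11.5 CPM. Summed over the 18 peaks of the first 100 kb, cluster 0 had 94.0 and 88.4 CPM, cDCP-like nuclei 94.2 and 101.4 CPM, cMoP-like nuclei 82.5 and 116.4 CPM, HSC-like nuclei 37.6 and 33.3 CPM and NeuP-like nuclei 21.7 and 41.0 CPM.

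**Figure D2:**
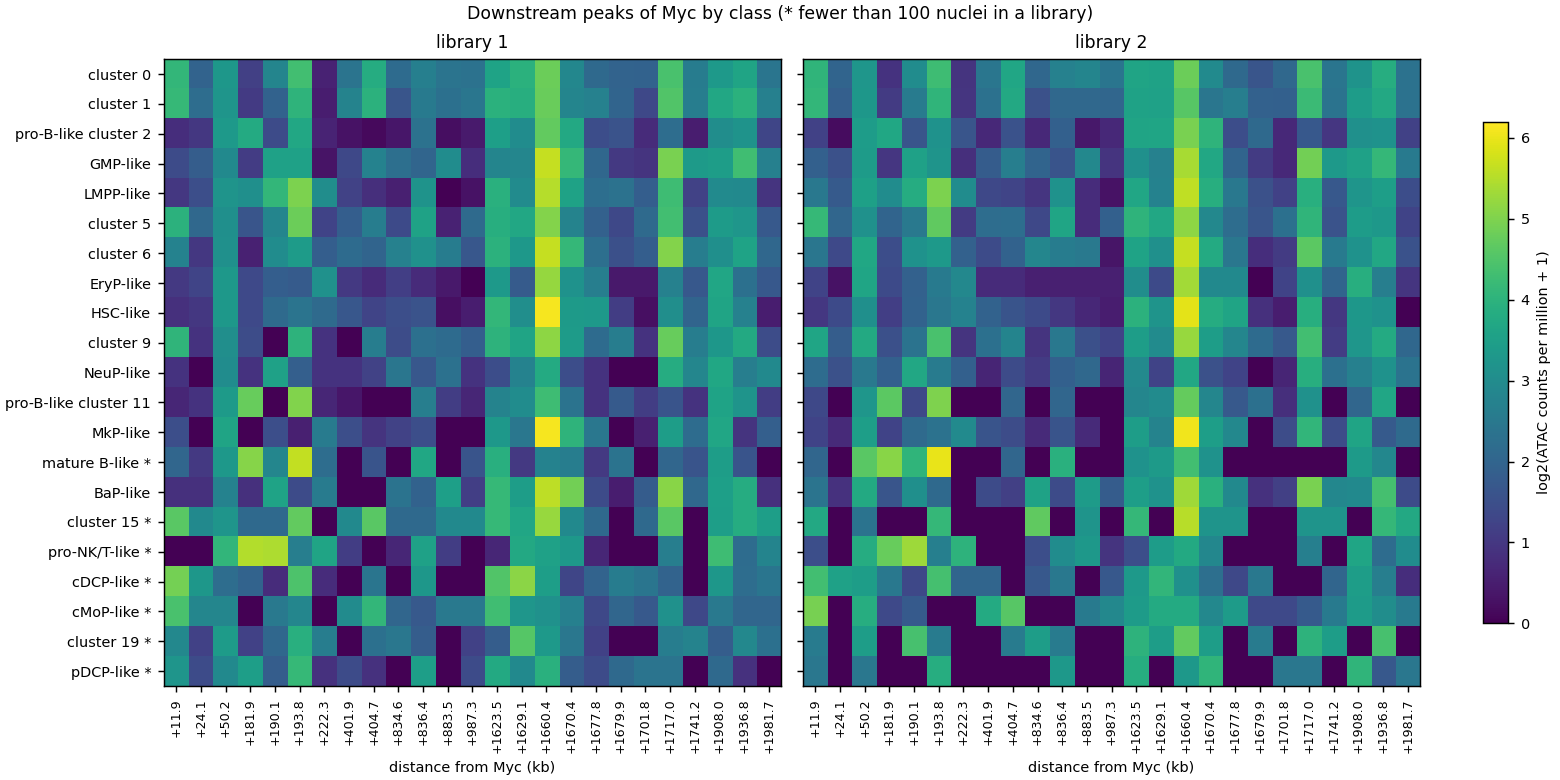
Rows are the 21 clusters, columns are the 10 downstream peaks with the most counts and those with the largest ratio in a cluster, ordered by distance from Myc (kb), and colour is log2(CPM + 1). HSC-like and MkP-like nuclei are brightest at +1660.4 kb, mature B-like nuclei at +193.8 kb and pro-NK/T-like nuclei at +190.1 kb, in both libraries, and at +181.9 kb these same clusters are the brightest, pro-NK/T-like in library 1 and mature B-like in library 2.

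The class patterns repeated between the libraries. Over the 63 downstream peaks with at least 200 counts in each library, the correlation of the levels of the 14 clusters between libraries had a median of 0.74, and it was over 0.5 for 51 of the 63. This is a description, since the same cluster definitions serve both libraries. The same correlation over all tested peaks is not given here, so it cannot be read as particular to the downstream peaks. By the stricter call (highest in the same cluster in both libraries and at least 2-fold the median of the other clusters in both), 15 of the 63 peaks were called, 23.8%, against 23% of all 103952 peaks tested, a share near the background. Of the 15, 3 each were highest in cluster 0, cluster 5 and GMP-like nuclei, 2 in pro-B-like cluster 11, and 1 each in BaP-like, HSC-like and LMPP-like nuclei and cluster 1. The spread of all called peaks over the clusters is not given beside these counts. The peak at +1660.4 kb was not called, since its highest cluster, MkP-like, stood under 2-fold the median in library 2.

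The start of Myc was open in all 14 large clusters and least open in the NeuP-like one. Its promoter peaks, those within 1 kb of the start interval on chromosome 15 (61985391 to 61987422), summed to between 53.3 and 85.5 CPM in library 1 and between 58.7 and 94.0 CPM in library 2 in 13 of the 14 large clusters, the NeuP-like one being the exception. EryP-like nuclei had 85.5 and 82.8 CPM, MkP-like 81.6 and 86.3 CPM, HSC-like 75.9 and 63.8 CPM and GMP-like 71.0 and 66.3 CPM. NeuP-like nuclei had 30.05 CPM (interval 21.0 to 41.7) and 36.6 CPM (28.5 to 46.4), at 0.444 (0.317 to 0.622) and 0.562 (0.441 to 0.716) of the other nuclei. With counts scaled to peaks near gene starts instead, the log2 ratio was -1.40 and -1.005, against -1.17 and -0.83. Few NeuP-like nuclei were deep in RNA, and in the 33 of 297 library 2 nuclei with at least 500 genes the log2 ratio turned to 0.20, while in the 25 of 179 in library 1 it was -0.77. Without the nuclei of the highest 8% of doublet scores it was -1.35 and -1.22. Whether mixed nuclei set the values of that subset was not tested. Among the smaller clusters, cDCP-like (53.6 and 34.3 CPM), cMoP-like (52.1 and 27.1 CPM) and pDCP-like nuclei (48.1 and 40.3 CPM) were also below the median of 67.1 and 65.7 CPM.

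The repressor side of the network had open starts in the same NeuP-like nuclei. The Mxd4 start had 140 and 125 CPM there, against 14-cluster medians of 86.5 and 76.9 CPM, and was 1.73-fold above other nuclei in each library (1.48 to 2.03 and 1.52 to 1.98). The Mga start had 84.8 and 89.2 CPM (1.57-fold, 1.28 to 1.93, and 1.71-fold, 1.46 to 2.01), the Mnt start 257 and 193 CPM (1.56-fold, 1.39 to 1.75, and 1.23-fold, 1.10 to 1.37) and the Mxi1 start region, which spans 8 peaks between its alternative starts, 206 and 197 CPM (1.31-fold in both). The Max start was 1.24-fold (1.005 to 1.53) and 1.46-fold (1.24 to 1.72) above other nuclei. NeuP-like nuclei had a larger share of all their ATAC counts near gene starts than any other of the 14 clusters (60.4% and 56.6%, where the others lay between 48.2% and 56.3%). Scaled to those counts, the log2 ratio of Mxd4 was 0.57 and 0.62, of Mga 0.42 and 0.61, of Mnt 0.41 and 0.12, of Mxi1 0.16 and 0.22 and of Max 0.08 and 0.37, against 0.39 and 0.39 for Mxi1 and 0.31 and 0.54 for Max on the main scale. In the library 2 nuclei with at least 500 genes the Mnt ratio turned to -0.31, and that of Mxd4 was 0.24. Mxd4 was also open in mature B-like nuclei (121 and 176 CPM) and pro-NK/T-like nuclei (117 and 114 CPM). The RNA in NeuP-like nuclei was not raised for each of these repressors. Mxd4 RNA was at 20.7 and 35.6 CPM (2 and 6 UMIs), against medians of 50.9 and 34.3 CPM. Mnt RNA was at 41.4 and 41.5 CPM (4 and 7 UMIs), against medians of 63.8 and 57.4 CPM. As given below, Mga RNA was low there and Mxi1 RNA was high.

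**Figure D3:**
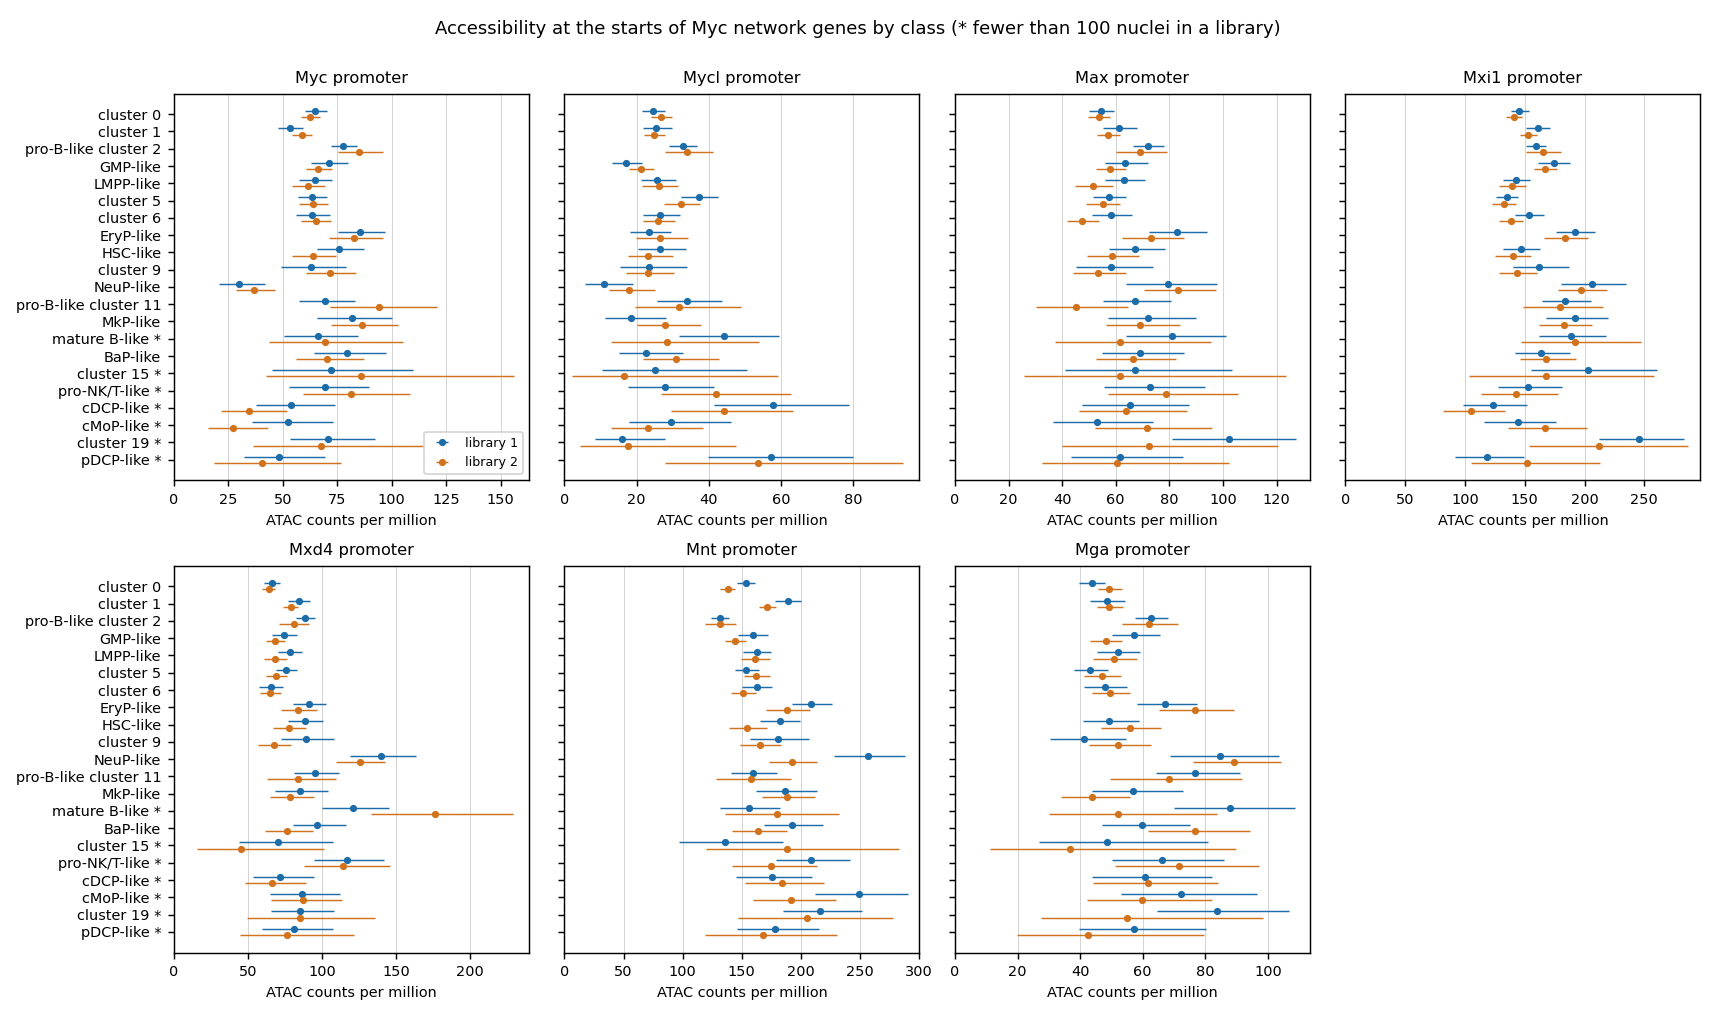
Each panel gives, for 1 member, the ATAC level (CPM) summed over its promoter peaks in every cluster, with 95% Poisson intervals on pairs of counts, library 1 in blue and library 2 in orange. NeuP-like nuclei are the lowest of the 14 large clusters for Myc and among the highest for Mxd4, Mnt and Mga.

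Promoter sequences were found in RefSeq for 6 of the 7 members (GRCm38.p6). The 2 that held the E-box letters in the 250 bases before the start belong to repressors and are shown for that reason, with E-box and CEBP matches in capitals, in the direction of transcription.
Mxd4, chr5:34187711-34187960, minus strand: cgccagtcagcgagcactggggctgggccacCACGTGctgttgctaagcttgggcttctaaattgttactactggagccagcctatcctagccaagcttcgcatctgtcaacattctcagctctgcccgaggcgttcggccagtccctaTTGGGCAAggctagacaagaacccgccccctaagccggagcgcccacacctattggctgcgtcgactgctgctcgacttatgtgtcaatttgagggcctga
Mnt, chr11:74830674-74830923, plus strand: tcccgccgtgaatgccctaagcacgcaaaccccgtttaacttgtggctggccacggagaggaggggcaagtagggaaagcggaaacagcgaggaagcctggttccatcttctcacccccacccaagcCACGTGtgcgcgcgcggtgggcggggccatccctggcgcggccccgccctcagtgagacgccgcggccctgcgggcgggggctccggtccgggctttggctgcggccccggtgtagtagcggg

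The other promoter windows of Mycl, Max, Mxi1 and Mga held no CACGTG in these 250 bases. Among all 32851 RefSeq promoter windows of 300 bases, 7.15% held it.

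Mycl RNA was nearly undetected, and its start was most open in the dendritic-like clusters. Only 5 UMIs were counted in library 1 and 1 in library 2, so no class level can be read. Its promoter peaks were nevertheless at 58.0 and 44.2 CPM in cDCP-like nuclei and at 57.4 and 53.7 CPM in pDCP-like nuclei, against medians of 25.1 and 26.3 CPM over the 14 large clusters, and at 11.05 and 17.9 CPM in NeuP-like nuclei. In the 33 NeuP-like nuclei of library 2 with at least 500 genes the log2 ratio turned to 0.22, against -0.58 in all. The cDCP-like level was 2.12-fold (1.55 to 2.90) and 1.68-fold (1.16 to 2.43) above other nuclei, from 70 and 96 nuclei. MYCL is known for its expression in dendritic cells. In library 1, 1 of its 5 UMIs was in a cDCP-like nucleus, 1 in a cMoP-like, 1 in cluster 0 and 2 in cluster 5.

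Myc RNA was low, and most cluster levels overlapped within counting error. It had 256 UMIs in library 1 (43.7 CPM, 38.5 to 49.3) and 354 in library 2 (60.3 CPM, 54.2 to 66.9). Over the 14 clusters its level ran from 20.7 CPM in pro-B-like cluster 11 to 76.3 CPM in MkP-like nuclei in library 1, with a median of 45.3 CPM. In library 2 it ran between the same clusters from 38.6 to 94.7 CPM, with a median of 67.6 CPM. The extremes rested on 3 and 2 UMIs and on 10 and 13 UMIs, and neighbouring clusters in this order overlapped within their intervals. Further apart in library 2, cluster 1 had 39.4 CPM (28.3 to 53.5), below cluster 6 with 76.9 CPM (54.4 to 105.5) and cluster 9 with 89.9 CPM (55.7 to 137.5), whereas in library 1 cluster 1 had 49.3 CPM (32.2 to 72.2) and overlapped both. Pro-B-like cluster 2 was at 0.661 (0.444 to 0.985) of other nuclei in library 1 and at 0.905 (0.548 to 1.49) in library 2. MkP-like nuclei were 1.78-fold (0.945 to 3.35) and 1.59-fold (0.915 to 2.77) above other nuclei, so a difference was not detectable at this depth. HSC-like nuclei, with the most open +1660.4 kb peak together with MkP-like, had 31.1 CPM (14.2 to 59.1) and 79.4 CPM (47.8 to 123.9) of Myc RNA. NeuP-like nuclei, with the least open start of the 14 large clusters, had 41.4 CPM (11.3 to 105.9) and 71.1 CPM (36.7 to 124.2).

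Across the 14 clusters, Myc RNA and Myc promoter accessibility were nearly unrelated (Pearson 0.07 and 0.05, Spearman -0.08 and 0.30). With the 31 peaks between 1600 and 1800 kb, the Pearson correlation was 0.56 and 0.46 and Spearman's 0.47 and 0.46, and with all 151 peaks 0.32 and -0.08. With the 18 peaks of the first 100 kb, Pearson was 0.14 and -0.32 and Spearman 0.23 and -0.27. For Mxi1 the RNA and the start region had a Pearson correlation of 0.81 and 0.66 and a Spearman correlation of 0.80 and 0.54. The Mxi1 start was highest in NeuP-like nuclei in both libraries, the cluster with the largest share of ATAC counts near gene starts. For the other members Pearson was 0.10 and 0.19 (Max), 0.01 and -0.04 (Mnt), -0.44 and -0.20 (Mga) and 0.04 and 0.13 (Mxd4). These are descriptions over 14 clusters that share libraries and depth, and with 2 to 55 Myc UMIs per cluster a weak relation cannot be told from sampling.

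The RNA of Mxd4 and Mxi1 differed between clusters beyond counting error in both libraries. That of Max did so less clearly, with a lower limit of its ratio near 1 in library 2. Mxd4, which opposes MYC in differentiating cells, was highest in pro-B-like cluster 11 in both libraries. It had 193 CPM (128 to 279) and 154 CPM (66.6 to 304) there, from 28 and 8 UMIs, against medians of 50.9 and 34.3 CPM. This was 4.43-fold (3.0004 to 6.55) and 5.16-fold (2.54 to 10.5) above other nuclei. The other pro-B-like cluster had 30.4 and 34.3 CPM, HSC-like nuclei 89.97 and 58.5 CPM and cluster 1, the lowest, 19.0 and 17.3 CPM. The interval of HSC-like nuclei reached 132 and 98.1 CPM and overlapped that of pro-B-like cluster 11 in both libraries. Mxi1, another MXD protein, had 155 and 113 CPM in NeuP-like nuclei (2.45-fold, 1.46 to 4.11, and 2.95-fold, 1.84 to 4.71), 120 and 71.8 CPM in EryP-like nuclei (1.958-fold, 1.43 to 2.69, and 1.84-fold, 1.12 to 3.01) and 103 and 116 CPM in pro-B-like cluster 11 (1.62-fold, 0.967 to 2.72, and 2.92-fold, 1.30 to 6.56, the first interval including 1). In the 25 NeuP-like nuclei of library 1 with at least 500 genes the log2 ratio of Mxi1 turned to -0.94, whereas in the 33 of library 2 it was 1.59. Max, the common partner, was 1.92-fold (1.199 to 3.06) and 1.70-fold (1.06 to 2.73) above other nuclei in NeuP-like nuclei, with 186 and 107 CPM.

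Mga and Mnt, the members that repress outside the MXD family, had other patterns. Mga had 82.7 CPM and 53.3 CPM in NeuP-like nuclei (8 and 9 UMIs), the lowest of the 14 clusters in both libraries. This was 0.401 (0.200 to 0.803) and 0.383 (0.198 to 0.738) of the other nuclei, while the Mga start was most open there. Among nuclei with at least 500 genes the log2 ratio of Mga was -0.37 in each library, against -1.32 and -1.39. Its median over the clusters was 222.4 and 145 CPM. Of the smaller clusters, cMoP-like nuclei had 48.3 and 74.4 CPM of Mga (3 and 4 UMIs) and cDCP-like nuclei 88.3 and 139 CPM. Mnt had 23.7 and 37.7 CPM in pro-B-like cluster 2, 0.309 (0.199 to 0.480) and 0.567 (0.311 to 1.03) of other nuclei, the latter interval including 1. Pro-B-like cluster 11 had 20.7 CPM of Mnt in library 1 and 0 UMIs in library 2, where 3 counts would be 57.9 CPM and the interval reached 71.2 CPM. Per kb of annotated gene span the order of the members was another one: in library 1, Myc had 8.76 CPM per kb, Mnt 4.63, Max 3.95, Mxd4 3.41, Mga 2.82 and Mxi1 0.992, on an RNA scale in which intronic reads of long genes count. Of the 5 members with at least 200 UMIs in each library (Myc, Max, Mxi1, Mnt and Mga), 0 met the call for a class-high gene, against 14.6% of the 4111 genes tested. Mxd4 had too few UMIs in library 2 to be tested.

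**Figure D4:**
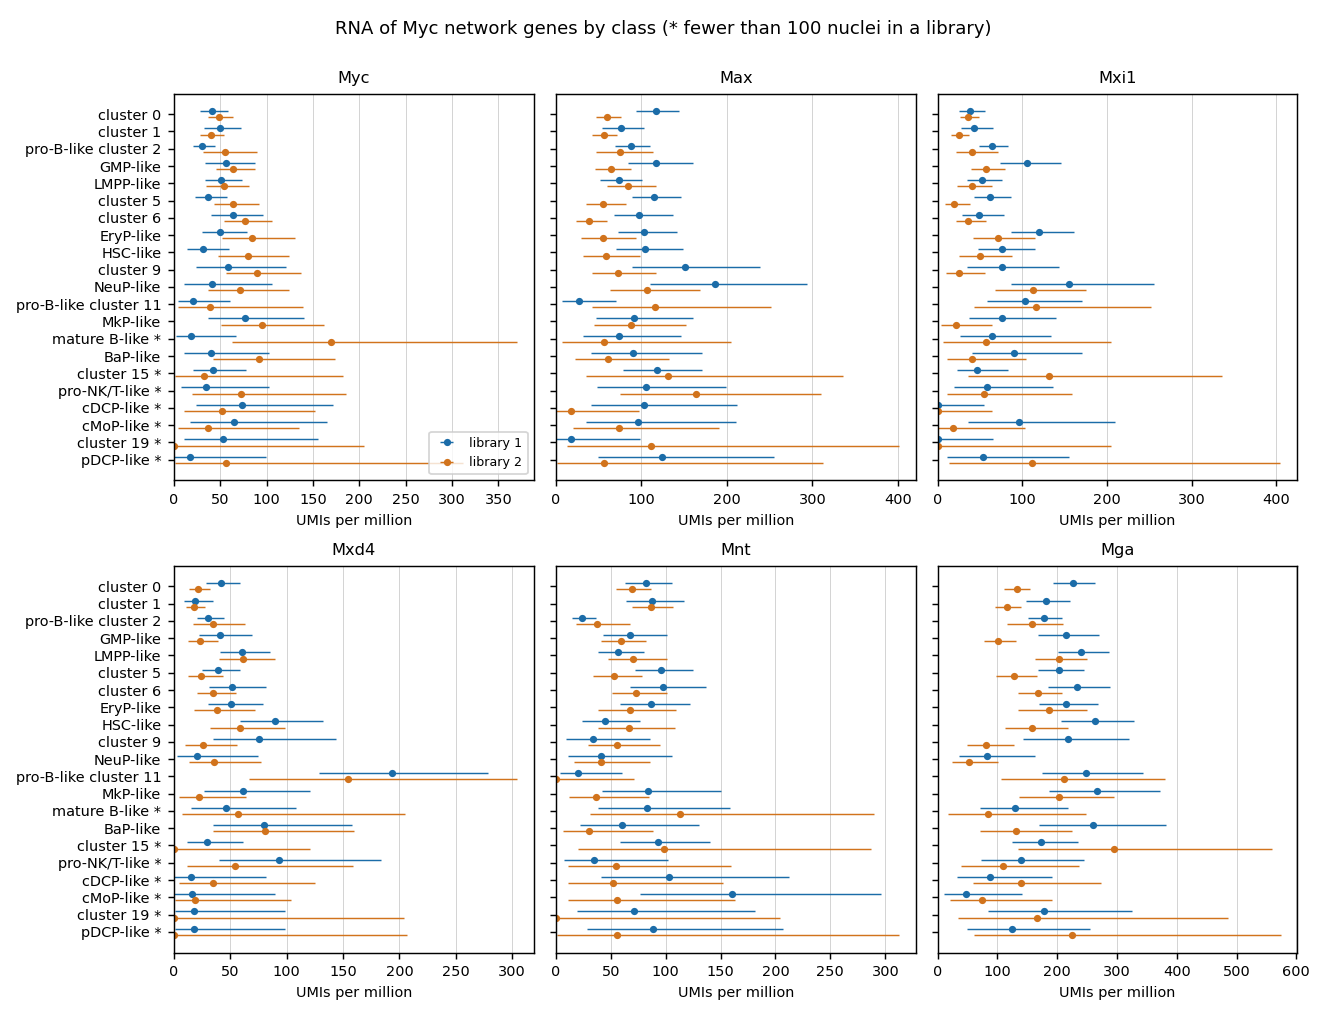
Each panel gives the RNA level (CPM) of 1 member in every cluster with 95% Poisson intervals, library 1 in blue and library 2 in orange. Mxd4 is highest in pro-B-like cluster 11 in both libraries, with intervals that overlap those of some other clusters. NeuP-like nuclei are high for Mxi1 and low for Mga, while most intervals of Myc overlap.

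Within 50 kb of the 7 members, Myc included, class-high peaks were called for 21 of 78 tested peaks (26.9%, against 23% over all peaks), and within 10 kb for 5 of 33 (15.2%). The windows of Mnt and Mga held 0 of 9 and 0 of 3. Of the 6 called near Mxd4, 5 were highest in LMPP-like nuclei and lay in introns or exons of the neighbouring gene Zfyve28. Of the 6 near Mxi1, 3 were highest in NeuP-like nuclei (at -25.4 and +47.7 kb and inside the gene). The one at -36.3 kb was highest in cluster 1 (16.2 and 15.8 CPM), with MkP-like nuclei at 0.897 and 1.36 CPM and cMoP-like nuclei at 42.0 and 35.9 CPM. Near Mycl, 3 of 5 were highest in cluster 5, and near Max the peak at -11 kb, in an intron of Max, was highest in NeuP-like nuclei. How all called peaks are spread over the clusters is not given here, so these counts are not read as particular to the members. The largest peak near Mga outside its start, at -23.8 kb, had 42.0 and 39.4 CPM in mature B-like nuclei, against medians of 11.5 and 11.2 CPM.

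Among 7 other transcription factors of the network, 5 had at least 20 UMIs in each library. Mxd1, an MXD repressor known from differentiating myeloid cells, had 414 CPM (295 to 563) and 243 CPM (174 to 330) in NeuP-like nuclei, against medians of 36.7 and 21.4 CPM, so it was 12.2-fold (8.66 to 17.1) and 11.2-fold (7.85 to 15.9) above other nuclei. In NeuP-like nuclei with at least 500 genes the log2 ratio was 3.59 and 2.79, against 3.61 and 3.48. Mlxip, which senses sugars with MLX, had 594 and 383 UMIs in all, and Zbtb17 (MIZ1, through which MYC represses) 126 and 113. Mycn had 24 and 13 UMIs.

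Between the libraries, Myc was the member with the largest relative difference, higher in library 2. Genes were compared with the median gene, whose log2 ratio of library 2 over library 1 was -0.33 among the 10611 genes that reached 20 UMIs in both. Myc was 0.78 above it on the log2 scale (0.55 to 1.02), and its level was higher in library 2 in 13 of the 14 large clusters. Mnt was 0.25 above the median (0.05 to 0.46), but as a mean of the cluster ratios its value was -0.17. Max (-0.29), Mxi1 (-0.34), Mga (-0.25) and Mxd4 (-0.26) were below the median, and none of these 4 nor Mnt differed from it by as much as 1.5-fold. Myc passed 1.5-fold, as did 8.92% of genes in that direction, and 6.57% were more than 1.5-fold lower. Gene span moved with this ratio: the median was 0.28 above that of all genes for genes under 10 kb, and for genes over 50 kb it stood at -0.26. Nuclei of library 2 also had fewer genes detected (median 410 against 636). Myc spans 4.98 kb. Relative to genes of like span its log2 ratio was 0.51, under 1.5-fold, and those of Mxi1 and Mga, both over 50 kb, were -0.08 and 0.01. The part of gene span in these ratios was not tested further, and library and treatment cannot be told apart here.

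**Figure D5:**
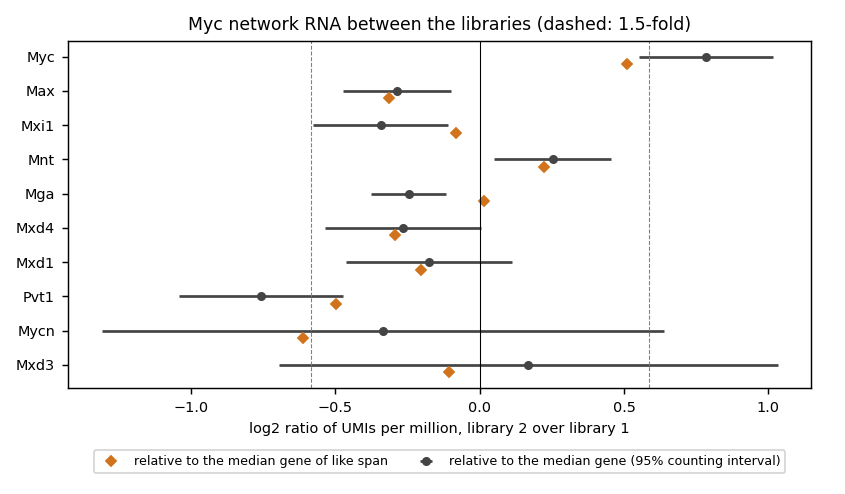
Points are log2 ratios of RNA levels (CPM), library 2 over library 1, relative to the median gene with 95% counting intervals, and diamonds are relative to the median gene of like span. Myc lies at 0.78 and 0.51, and Pvt1 at -0.76 and -0.50.

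The RNA of Pvt1, the noncoding neighbour whose body holds the peaks at +181.9 to +193.8 kb, went the other way, with 316 and 146 UMIs and a log2 ratio of -0.76 (-1.04 to -0.48) relative to the median gene. Pvt1 spans 340 kb, and relative to genes over 50 kb the value was -0.50. In EryP-like nuclei Pvt1 RNA had 120 and 42.2 CPM (43 and 10 UMIs), and in library 2 the interval of its ratio to other nuclei included 1. Pro-NK/T-like nuclei, a smaller cluster, had 175 and 54.4 CPM (15 and 3 UMIs). NeuP-like nuclei had 10.3 and 0 CPM, from 1 and 0 UMIs, with intervals that reached 57.6 and 21.9 CPM. ATAC counts did not show such shifts. Of the 63 tested downstream peaks 1 was more than 1.5-fold apart between libraries (+181.9 kb, lower in library 2), against 3.32% of all peaks tested, and of the 78 near the members also 1 (Max -11 kb, higher in library 2). Of the clusters high at +181.9 kb, pro-B-like cluster 2 had 791 and 388 nuclei, pro-B-like cluster 11 had 252 and 128, mature B-like 191 and 82 and pro-NK/T-like 109 and 92, and their part in this difference was not tested.

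Of the 30 listed MYC target genes for ribosome production and growth, 29 were tested. In library 2, 7 were more than 1.5-fold above the median gene and 0 below, with a list median of 0.49 and of 0.28 relative to genes of like span. Over all genes tested, 8.92% were higher by as much. Among genes under 10 kb, to which 14 of the 29 belong, 17.6% were more than 1.5-fold higher. Examples with the most UMIs are Ncl (nucleolin, log2 ratio 0.52), Npm1 (nucleophosmin, 0.90), Hspd1 (a mitochondrial chaperone, 0.71) and Eif4a1 (a translation initiation helicase, 0.32). Summed, the targets were lowest among the 14 clusters in NeuP-like nuclei (3453 CPM, 3092 to 3844, and 5032 CPM, 4699 to 5382). In library 1 pro-B-like cluster 11 had 3627 CPM (3323 to 3950), which overlapped. Nuclei of the smaller cMoP-like cluster were as low, with 3442 and 5043 CPM. The highest were EryP-like nuclei in library 1 (7411 CPM) and MkP-like nuclei in library 2 (7827 CPM), whose intervals overlapped in both libraries. Of 24 targets tested, Tfrc (the transferrin receptor) alone met the class-high call, in pro-B-like cluster 2, against 14.6% of all genes tested.

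Of 13 genes for MYC stability and cofactors, 2 were more than 1.5-fold below the median gene in library 2, Fbxw7 (the ubiquitin ligase subunit that marks MYC for degradation, -0.66) and Skp2 (another such subunit, -0.59), and 0 above, where 6.57% of all genes and 14.9% of genes over 50 kb were lower by as much. The list median was -0.14, and -0.06 relative to genes of like span. Huwe1, a ubiquitin ligase, had the most UMIs (4642 and 3355). None of the 6 SIN3 and histone deacetylase corepressors (median -0.03) or of the 9 partners of MGA in PRC1.6 (median 0.05) passed 1.5-fold. Of all genes tested, 8.92% were higher and 6.57% lower by as much, so few would be looked for in lists of this size. By levels over 28 points of cluster and library, the 5 genes most like Myc of 4107 compared were St3gal4 (Pearson 0.71), Vamp8 (0.66), Gm15564 (0.66), Lars2 (0.65) and Cct8 (0.64), a description over points that include both libraries. Of these, Gm15564 and Lars2 had 2603 against 815 and 290560 against 144288 UMIs in library 2 and library 1. Like Myc, all 5 had more UMIs in library 2. The part of the library difference in these correlations was not tested. For Mycl no such genes were sought, as it had 6 UMIs in all.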

How the data were processed

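Nuclei of Lin-cKit+ bone marrow cells were profiled for RNA and ATAC together in 2 libraries. The deposited values are raw counts (UMIs for gene rows, ATAC counts for peak rows, the peaks called on both libraries together), which the authors made with Cell Ranger ARC 2.0.0 on GRCm38 (mm10), per the labels and the submitters' processing notes, which also name Seurat 4.0.3 and Signac 1.3.0. The limit on genes, the components and the resolution below follow the study's methods. Its limits of 1000 and 50000 were on fragments and were applied here to peak counts (halved peak counts, an alternative, kept 5909 and 7383 nuclei), and its limit on mitochondrial genes was not applied. Since 82.5% of nonzero peak entries were even, ATAC intervals were taken on pairs of counts.

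Nuclei with at least 200 genes and 1000 to 50000 peak counts were kept. RNA (30 components) and ATAC (LSI components 2 to 30) were corrected between libraries and clustered together in Seurat 5.3.0 (R 4.3.3, resolution 0.8), without members, list genes and member peaks. Names needed 3 markers with a log2 ratio of at least 1 and 1 among the 10 leading genes. Scrublet in scanpy 1.11.5 called 3 doublets (0.022%), a rate at which it has not worked, so none were removed, and removal of the highest 8% of scores was an alternative. CPM of genes used UMIs outside the ribosomal RNA locus (5864583 and 5872916), and library ratios a pseudocount of 1 CPM. CPM of peaks used all 118239764 and 128699726 peak counts. No test was made, since each kind has 1 library, and intervals of ratios come from the counting variance of the log ratio. The class-high call was checked on simulated gene counts only, and not on peak counts.

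Named peaks were each member's promoter peaks and largest other peak within 50 kb, the 10 downstream peaks with the most counts and each cluster's peak with the largest ratio. Other peaks, and the class contrasts, were chosen after their values were seen. The members and lists were chosen with earlier results of these data known. Alternatives were other denominators, filters, resolutions, windows and bins. Gene spans were from GENCODE M21, sequences from RefSeq GRCm38.p6, both of the build of the files.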

Additional observations from a re-analysis of the deposited data

How the results depend on the processing

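Of 653 alternative values, 609 stayed within the counting interval of the main value (for counts of peaks, within 1.5 times), 37 moved outside it and 7 turned direction. The filter of at least 500 genes per nucleus gave 19 of the moved and 5 of the turned values, beside 70 that stayed. Class names matched by overlap for 14 of 21 clusters at resolution 0.4, 17 without correction between libraries, 20 with the members kept in the clustering and 19 with the limits on halved ATAC counts. Clusters that were not matched gave no value. Downstream class-high peaks numbered 15 and between 15 and 22 under 4 alternatives. Near the members, 26.9% of tested peaks were called within 50 kb and 15.2% within 10 kb. The leading bin held 15.7% and 14.6% of downstream counts with 50 kb bins, by construction narrower, and 30.2% and 28.9% among peaks with at least 200 counts in each library.

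Relative to genes of like span (chosen after seeing the data), the library ratio of Myc was 0.51, of Mxi1 -0.0819 and of Mga 0.0141 on the log2 scale. As a mean of the cluster ratios, that of Mnt turned to -0.17, where pro-B-like cluster 11 had 0 UMIs in library 2. With at least 500 genes per nucleus, 5 class contrasts turned: Mxi1 RNA in NeuP-like nuclei, library 1 (-0.94), and, in library 2, the starts of Myc (0.20), Mnt (-0.31) and Mycl (0.22) in NeuP-like nuclei and the +193.8 kb peak in pro-B-like cluster 11 (-0.68). That filter left 1988 of 7714 library 2 nuclei, 33 NeuP-like and 6 of pro-B-like cluster 11, and was planned for RNA only. No paired analysis was possible because each group has 1 sample and the columns carry no replicate number.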
